A study of Homo sapiens with 8 samples.

Results

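The 42 genes described here encode the eukaryotic translation initiation factors and their closest cytoplasmic partners: eIF1, eIF2, eIF2B, eIF3, eIF4, eIF5 and eIF6 components, the eIF4E-binding proteins and the poly(A)-binding protein PABPC1. They were chosen by gene symbol, and all 42 were found among the 58870 gene rows of the deposited table. The study sequenced total RNA from Panc 10.05, a line derived from a human pancreatic ductal adenocarcinoma, and compared 4 control libraries with 4 libraries of cells that overexpress ELAPOR1, as the labels state. ELAPOR1 is a transmembrane protein of the endosomal and lysosomal system, and the series' title relates it to the classical subtype and the metabolism of pancreatic cancer. The labels name no drug or other treatment and do not say how the gene was introduced, what the control cells carried, or whether the cells were a clone or a pool. They also do not say whether the libraries of a group came from separate cultures, so the p-values below measure the spread between these libraries, which may be technical.

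Initiation begins when eIF2, bound to GTP and the initiator tRNA, joins the small ribosomal subunit together with eIF1, eIF1A, eIF3 and eIF5. The eIF4F complex, which consists of the cap-binding protein eIF4E, the scaffold eIF4G and the helicase eIF4A, recruits this assembly to the capped 5′ end of an mRNA, and the subunit then scans to a start codon. eIF2B reloads eIF2 with GTP, and phosphorylation of the alpha subunit of eIF2 blocks that exchange during stress. The 4E-binding proteins hold eIF4E inactive until the kinase mTORC1 phosphorylates them. Many mRNAs for ribosomal proteins, and some for initiation factors, start with a cytosine followed by an unbroken run of pyrimidines. This 5′ terminal oligopyrimidine (TOP) tract places their translation under mTORC1 and the RNA-binding protein LARP1. The libraries measure the amount of each RNA relative to all RNA counted, and not translation or protein.

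The libraries held 16558600 to 18128757 expected counts in the control group and 13765509 to 17258166 in the ELAPOR1 group. The ELAPOR1 gene, listed under its older symbol KIAA1324, rose from 0.150 ± 0.107 to 427 ± 2.28 counts per 1000000 (CPM; mean ± SD, n = 4 per group; log2 change 11.43 with SE 0.0856, edgeR adjusted p = 3.5e-43). All 7 markers of ductal epithelium examined stood at 62.6 CPM or more in every library. Their summed level was 12008 to 13280 CPM in control and 11236 to 11579 CPM in ELAPOR1 libraries. Of 17 markers of leukocytes, endothelium, fibroblasts, acinar cells and endocrine cells, 2 averaged above 1 CPM (COL1A1 and VWF), and none passed 4.27 CPM in any library. In bulk RNA, less RNA per cell and fewer cells with that RNA cannot be told apart.

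All 42 initiation factor genes passed the expression filter, with mean levels from 20.0 CPM upward (EIF2B3, the lowest). Of these, 32 changed at an adjusted p below 0.05 in edgeR's quasi-likelihood test: 17 were higher and 15 were lower with ELAPOR1. In all 13860 genes tested, 44.7% changed, 22.6% higher and 22.1% lower. The initiation factors were also abundant, with a median mean level of 204.05 CPM against 25.5 CPM over all genes tested, and abundant genes were called more often. Among all genes averaging at least 10 CPM, 53.4% were called, and among those averaging at least 100 CPM, 67.8%, against 26 of the 31 initiation factor genes at that level. The members' median log2 fold change was 0.03, and the median over all genes was 0.00.

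The changes were modest and ran in both directions within most complexes. Fold changes on the log2 scale spanned -0.67 for EIF4B to 0.34 for EIF1AX. Control and ELAPOR1 libraries did not overlap in CPM for 32 of the 42 genes, which include 31 of the 32 called, against 39.2% of all genes tested. EIF5 was called with overlapping groups, and EIF4E2 did not overlap but was not called. When the test asked for a change beyond 1.2-fold, 9 members remained: EIF1AX was higher, and EIF1, EIF3E, EIF3F, EIF3H, EIF3L, EIF4A2, EIF4B and EIF4EBP1 were lower.

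**Figure D1:**
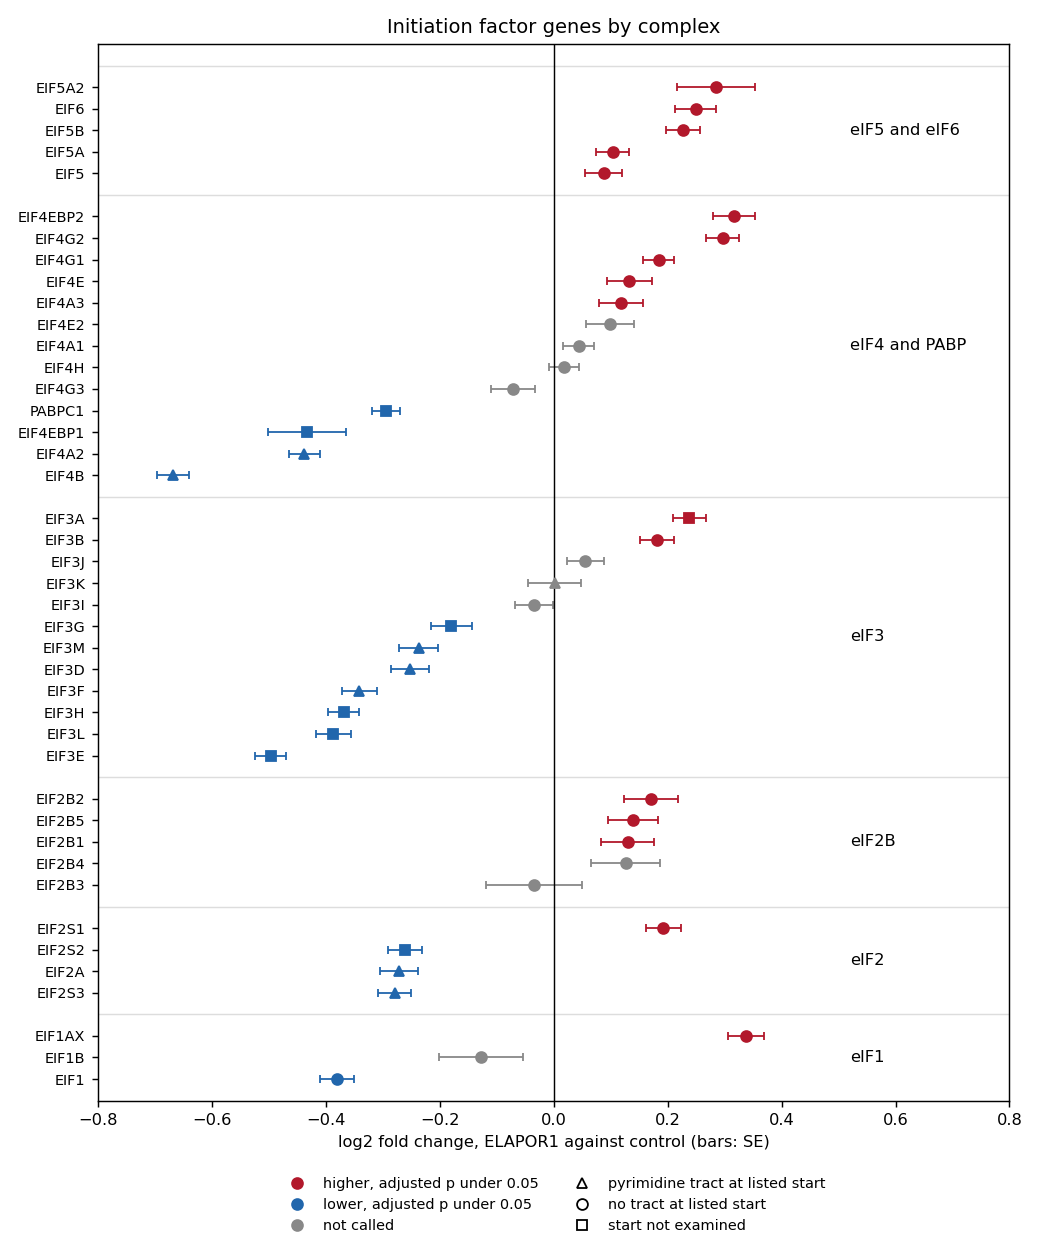
Log2 fold change of ELAPOR1 over control (horizontal axis) with its standard error for each of the 42 genes, grouped by complex, with 4 libraries per group. Red and blue mark genes called higher and lower and grey those not called, and triangles mark genes whose listed transcription start begins with a pyrimidine tract. Squares mark the 8 genes without a listed start. Values run from -0.67 (EIF4B) to 0.34 (EIF1AX), and 7 of the 8 triangles are blue.

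Members with and without a pyrimidine tract at the transcription start differed in direction. RefSeq starts on GRCh38.p14 were listed for 34 of the 42 genes, all but EIF2S2, EIF3A, EIF3E, EIF3G, EIF3H, EIF3L, EIF4EBP1 and PABPC1. A tract was counted where a listed start begins with C followed by at least 4 further pyrimidines (C or T), read on the coding strand. This criterion was applied with the fold changes already known. It was met by 8 of the 34 members and by 720 of the 9895 tested genes with a listed start, each gene counted once. Counted per start, with genes not tested here included, it was met by 4.07% of all 35116 listed starts. The 8 genes are shown first in the windows below because 7 of them fell and none rose. Each window holds the 15 bases before the listed start and the 15 bases from it on, all in the promoter and the beginning of the first exon. Capitals mark the tract.
EIF4B: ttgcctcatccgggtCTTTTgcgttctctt
EIF4A2: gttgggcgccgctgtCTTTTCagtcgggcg
EIF3F: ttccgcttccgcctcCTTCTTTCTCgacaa
EIF2S3: ggggtgatttccttcCTCTTTTggcaacat
EIF2A: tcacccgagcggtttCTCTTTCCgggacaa
EIF3D: gcgcgcgcatgtttcCTCTTTTCCTggttt
EIF3M: gcgcggcccagttccCTTTTCCggtcggcg
EIF3K: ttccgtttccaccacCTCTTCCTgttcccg
The windows lie at chr12:53006441-53006470 (+ strand), chr3:186783562-186783591 (+ strand), chr11:7987322-7987351 (+ strand), chrX:24054941-24054970 (+ strand), chr3:150546772-150546801 (+ strand), chr22:36529152-36529181 (- strand), chr11:32583816-32583845 (+ strand) and chr19:38619173-38619202 (+ strand), in that order. Their tracts were 5 to 10 bases long.

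For contrast, the following windows come from genes without a tract at the listed start, and the capital marks the first transcribed base. EIF4A1 and EIF2S1 are paired by function with EIF4A2 and EIF2S3 above. EIF1AX, EIF4EBP2 and EIF4G2 had the largest increases among the 42 genes, and EIF1 was the lone gene to fall among the 26 without a tract.
EIF4A1: aggcgggcactccgcCctagtttctaagga
EIF2S1: gcgaggaggttccgcAtgcgcggtggagtg
EIF1AX: gcaaagagtcgcggcGccatttgctgccgc
EIF4EBP2: ctcccgccttcgcccGcttccggtcgtcgt
EIF4G2: gaggttgtcggaagcActtccctaacttgc
EIF1: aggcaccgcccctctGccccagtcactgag
These lie at chr17:7572810-7572839 (+ strand), chr14:67360313-67360342 (+ strand), chrX:20141824-20141853 (- strand), chr10:70404130-70404159 (+ strand), chr11:10807982-10808011 (- strand) and chr17:41688870-41688899 (+ strand). The EIF4A1 start opens with C but has a pyrimidine run of 3 bases in all.

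Of the 8 members with a tract, 7 were lower with ELAPOR1 and EIF3K was not called, and their median log2 fold change was -0.28. Of the 26 members without one, 16 were higher, 1 was lower and 9 were not called, with a median of 0.13. Among the members with a tract, tested genes within 1 Mb had a median log2 fold change of -0.43 for EIF3F and -0.17 for EIF2A. It was -0.12, -0.11, -0.02, -0.01, 0.00 and 0.15 for EIF4B, EIF4A2, EIF3M, EIF3D, EIF2S3 and EIF3K. The part of these neighbours in the result was not tested. The 8 members without a listed start are in neither class: EIF3A was higher, and EIF2S2, EIF3E, EIF3G, EIF3H, EIF3L, EIF4EBP1 and PABPC1 were lower. Whether these 8 have a tract was not examined. Among other genes the 2 classes lay closer together. Outside the ribosomal protein genes and the members, 666 tested genes had a tract: 37.1% of them were lower and 17.9% were higher, with a median of -0.07. The 9133 genes without a tract had 20.9% lower and 25.6% higher, with a median of 0.02. Restricted to genes averaging at least 100 CPM, the lower share was 43.7% of 151 genes with a tract and 23.8% of 1573 genes without one, and the higher share was 29.1% and 41.2%.

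Ribosomal protein genes, the reference class of TOP mRNAs, fell nearly throughout: 75 of 77 tested were lower, none was higher, and the median log2 fold change was -0.39. Among those with a listed start, 44 of 46 with a tract and 16 of 16 without one were lower, so within that family a tract at the listed start did not separate the genes. Of the initiation factors, 7 (EIF2S3, EIF3E, EIF3F, EIF3H, EIF3L, EIF4B and PABPC1) were listed as TOP mRNAs from recall of the literature. That list was made with earlier results of these data known, so its counts are descriptive. All 7 were lower, with a median of -0.37, while 17 of the other 35 members were higher, 8 were lower and 10 were not called. For 3 of the 7 a start was listed, and all 3 starts had a tract.

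**Figure D2:**
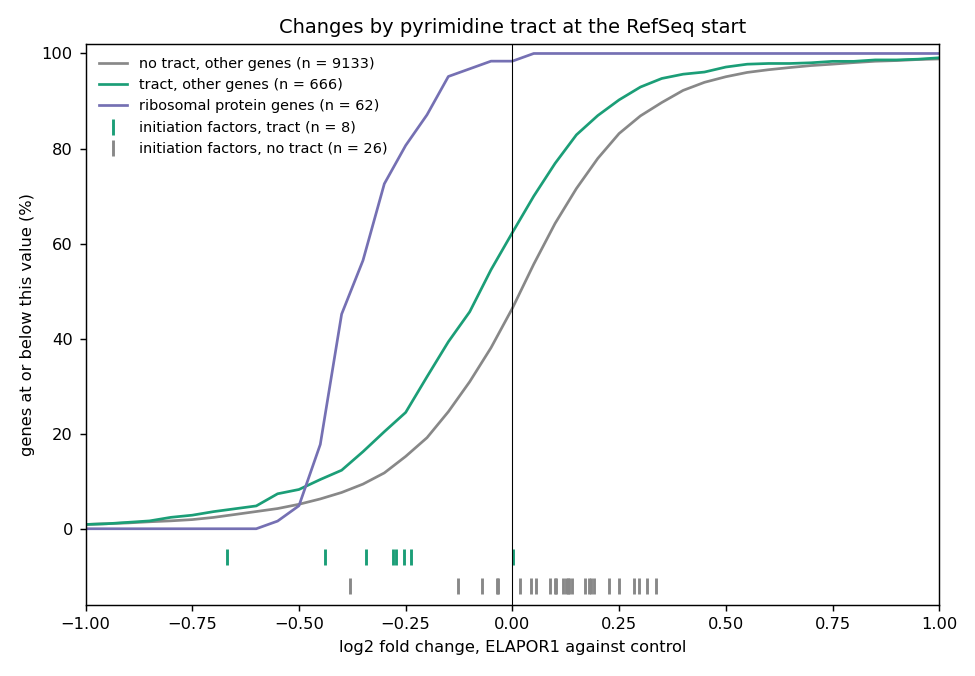
Cumulative percent of tested genes (vertical axis) at or below each log2 fold change of ELAPOR1 over control (horizontal axis), for genes without a tract (n = 9133), with a tract (n = 666) and ribosomal protein genes with a listed start (n = 62), with ticks for the initiation factors. The tract curve lies slightly to the left of the no-tract curve (medians -0.07 and 0.02), the ribosomal protein curve lies far to the left, and the ticks of the 8 members with a tract sit between -0.67 and 0.00.

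Both counts depended on how the tract was defined. A tract of at least 8 bases was met by 4 members (EIF2A, EIF3D, EIF3F and EIF3K), of which 3 were lower, and 5 members without such a tract were then lower as well. A tract allowed to begin within 2 bases of the listed start was met by 12 members and, counted per start and not per gene, by 10.5% of all starts. It added EIF3J and EIF4E2, which were not called, and EIF4G2 and EIF4EBP2, which were higher.

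The E-box CACGTG, a palindrome bound by MYC and other helix-loop-helix factors, was counted in the 300 bases from 250 before to 50 after each listed start. It occurred at any listed start of 10 of the 34 members, counted per gene, and in 7.26% of all listed promoters, counted per start. A share per tested gene was not computed, so members and promoters are not compared in like units. EIF4E, EIF4G1 and EIF5A2 held at least 2 copies, which 0.664% of all promoters did. Both directions occurred with and without it: 4 of the 10 genes with it were higher, 2 were lower and 4 were not called, and 12, 6 and 6 of the 24 without it.

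The eIF1 group moved in opposite directions. EIF1, which holds the small subunit open for scanning and guards start codon choice, had 369, 386, 379.5 and 388 CPM in the control libraries and 291, 299.8, 289.8 and 289 CPM in the ELAPOR1 libraries. This was a decrease of 23.2% with no overlap (log2 change -0.38 with SE 0.0292, edgeR adjusted p = 8.6e-13). EIF1AX, the X-linked gene for eIF1A, which works beside eIF1 in scanning, had 164, 169, 164 and 162 CPM in control and 208, 211, 205 and 208 CPM in ELAPOR1 libraries. It rose by 26.3% (log2 change 0.34 with SE 0.0314, edgeR adjusted p = 7.7e-11), the largest increase among the 42 genes. EIF1B, a paralog of EIF1, had 19.9, 22.5, 21.6 and 20.1 CPM in control and 19.1, 21.0, 18.6 and 18.2 CPM in ELAPOR1 libraries, with overlapping groups (log2 change -0.13 with SE 0.0741, edgeR adjusted p = 0.17).

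All 4 genes of the eIF2 group changed, 3 of them downward. EIF2S1 encodes the alpha subunit, the target of the stress kinases, and was the member that rose: 208, 204, 201 and 204 CPM in control against 234, 233, 238 and 229 CPM with ELAPOR1 (log2 change 0.19 with SE 0.0305, edgeR adjusted p = 3.3e-06). The beta subunit gene EIF2S2 went the other way, from 355, 350.0, 362 and 369.6 CPM to 305, 306, 290.1 and 298 CPM (log2 change -0.26 with SE 0.0298, edgeR adjusted p = 7.0e-09). EIF2S3, the gene of the gamma subunit that binds GTP and the initiator tRNA, stood at 444, 447, 437 and 461 CPM in control and 359, 361, 374 and 379.8 CPM in ELAPOR1 libraries (log2 change -0.28 with SE 0.0292, edgeR adjusted p = 1.1e-09). The groups overlapped for none of the 3 subunit genes, so the alpha subunit transcript rose while those of its 2 partners fell. EIF2A, a separate protein that can deliver initiator tRNA without being part of the eIF2 trimer, had 167, 174, 171 and 174 CPM in control and 143, 144, 142 and 139 CPM in ELAPOR1 libraries (log2 change -0.27 with SE 0.0329, edgeR adjusted p = 2.2e-08). The summed level of the 4 genes went from 1182 ± 17.7 to 1044 ± 1.95 CPM.

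Within eIF2B, the exchange factor that recharges eIF2, 3 of 5 subunit genes rose by small amounts and none fell. EIF2B2, which encodes a regulatory subunit, had 50.4, 54.7, 51.5 and 51.6 CPM in control and 60.7, 59.5, 57.1 and 57.1 CPM in ELAPOR1 libraries (log2 change 0.17 with SE 0.0472, edgeR adjusted p = 0.0034). For the catalytic subunit gene EIF2B5 the values were 61.5, 61.5, 60.9 and 59.2 CPM in control and 66.2, 65.7, 67.1 and 68.8 CPM in ELAPOR1 libraries (log2 change 0.14 with SE 0.0434, edgeR adjusted p = 0.0091). EIF2B1, of the regulatory alpha subunit, had 54.6, 55.7, 57.7 and 59.8 CPM in control and 60.4, 63.9, 63.5 and 61.4 CPM with ELAPOR1 (log2 change 0.13 with SE 0.0461, edgeR adjusted p = 0.022). The groups did not overlap for any of these 3, but 2 of the calls were fragile. EIF2B5 lost its call when trends with GC content and transcript length were removed (0.08, adjusted p = 0.14). EIF2B1 lost its call without control replicate 1 (0.10, adjusted p = 0.071), control replicate 2 (adjusted p = 0.062), ELAPOR1 replicate 2 (adjusted p = 0.066) or ELAPOR1 replicate 3 (adjusted p = 0.056), each time in edgeR. EIF2B3 and EIF2B4, the gamma and delta subunit genes, were not called, at -0.04 and 0.13 on the log2 scale.

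eIF3, the largest initiation factor, bridges the ribosome and eIF4G, and 7 of its 12 subunit genes among the members fell while 2 rose. EIF3E had 716, 706, 699 and 713 CPM in the control libraries and 505, 497, 493 and 512 CPM in the ELAPOR1 libraries. Every ELAPOR1 library was below every control library, a decrease of 29.1% (log2 change -0.50 with SE 0.0269, edgeR adjusted p = 1.1e-16). EIF3L, another subunit gene, went from 266, 272, 268 and 272 CPM to 208, 211, 207 and 199 CPM (log2 change -0.39 with SE 0.0306, edgeR adjusted p = 1.7e-12). EIF3H likewise had 619.8, 626, 618 and 644 CPM in control and 494, 492, 477 and 479 CPM in ELAPOR1 libraries (log2 change -0.37 with SE 0.0276, edgeR adjusted p = 4.3e-13). The MPN-domain subunit gene EIF3F stood at 303, 323, 317 and 323 CPM in control and 255, 251, 251 and 241 CPM with ELAPOR1 (log2 change -0.34 with SE 0.0308, edgeR adjusted p = 3.8e-11). None of these 4 genes had overlapping groups.

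Smaller decreases were found for EIF3D, EIF3M and EIF3G. EIF3D, a subunit able to bind the cap of some mRNAs, went from 216 ± 9.82 to 181 ± 2.40 CPM (log2 change -0.25 with SE 0.0336, edgeR adjusted p = 1.4e-07). EIF3M, a PCI-domain subunit, went from 197 ± 8.76 to 167 ± 3.83 CPM (log2 change -0.24 with SE 0.0345, edgeR adjusted p = 7.5e-07), and EIF3G, an RNA-binding subunit, from 185 ± 9.55 to 163 ± 5.38 CPM (log2 fold change -0.18). The 2 subunit genes of the 12 that rose were the scaffold genes EIF3A and EIF3B. EIF3C, another subunit gene, is not among the 12. It is described below with the companion genes, where it and its near-identical copy EIF3CL were also higher. EIF3A had 440.3, 411, 428 and 407 CPM in control and 492, 497, 501 and 499.9 CPM in ELAPOR1 libraries (log2 change 0.24 with SE 0.0292, edgeR adjusted p = 2.8e-08). EIF3B had 321, 332, 328 and 344 CPM in control and 377, 382, 362 and 381 CPM with ELAPOR1 (log2 change 0.18 with SE 0.0300, edgeR adjusted p = 7.0e-06). EIF3I, EIF3J and EIF3K were not called, with log2 fold changes of -0.03, 0.06 and 0.00. EIF3K had a tract at its listed start and the widest control spread of the 3, 128 ± 11.4 CPM against 128 ± 2.22 CPM with ELAPOR1, and its estimate took either sign under other settings, never called. Summed over the 12 genes, without EIF3C and EIF3CL, the level went from 3739.9 ± 61.0 to 3297 ± 26.4 CPM.

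**Figure D3:**
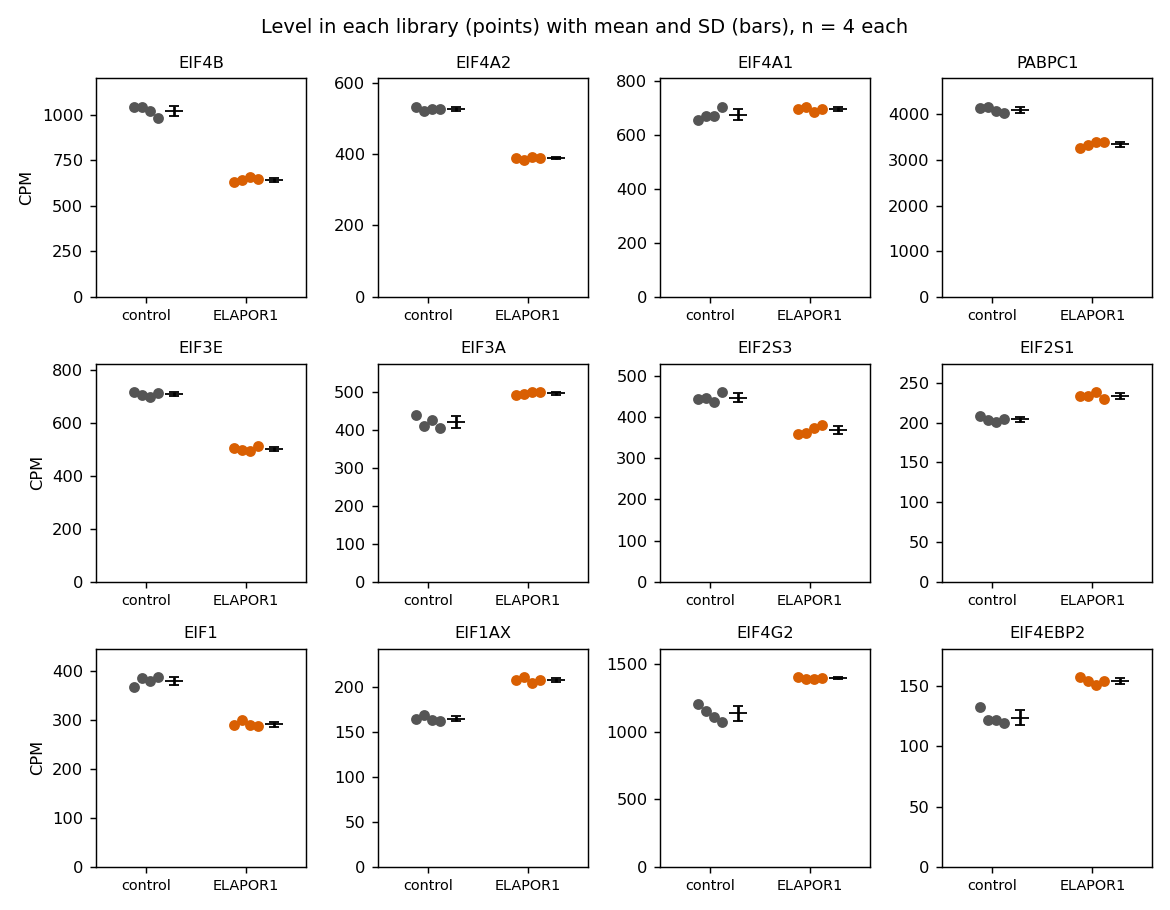
CPM in each of the 8 libraries (points) with the mean and SD of each group for EIF4B, EIF4A2, EIF4A1, PABPC1, EIF3E, EIF3A, EIF2S3, EIF2S1, EIF1, EIF1AX, EIF4G2 and EIF4EBP2. The control and ELAPOR1 points are apart in every panel other than EIF4A1, where the ELAPOR1 libraries lie between 684 and 703 CPM and the control libraries between 655 and 704 CPM.

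The eIF4 group and PABPC1 held the largest single change. EIF4B, an RNA-binding cofactor that stimulates the eIF4A helicase and is phosphorylated by S6 kinase, had 1043, 1045, 1024 and 986 CPM in the control libraries. In the ELAPOR1 libraries it had 629.8, 644, 656 and 647 CPM, a decrease of 37.1% (log2 change -0.67 with SE 0.0274, edgeR adjusted p = 5.8e-20). EIF4H, a related helicase cofactor, was at 829.9 ± 16.2 CPM in control and 841 ± 9.88 CPM with ELAPOR1 (log2 change 0.02 with SE 0.0264, edgeR adjusted p = 0.60) and was not called.

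The helicase paralogs also differed from each other. EIF4A2 had 532, 519.7, 526 and 526 CPM in control and 388, 384, 392 and 389.6 CPM in ELAPOR1 libraries, a decrease of 26.2% (log2 change -0.44 with SE 0.0273, edgeR adjusted p = 4.6e-15). EIF4A1, its close paralog in eIF4F, had 655, 671, 670.2 and 704 CPM in control and 698, 703, 684 and 698 CPM in ELAPOR1 libraries, with overlapping groups (log2 change 0.04 with SE 0.0277, edgeR adjusted p = 0.21). Without control replicate 4, EIF4A1 passed the threshold as higher (0.06, edgeR adjusted p = 0.040). Both loci overlap annotated small RNA genes, and EIF4A1 overlaps a readthrough gene with SENP3. EIF4A3, a related helicase of the exon junction complex and not of eIF4F, went from 109 ± 5.12 to 118 ± 2.73 CPM (log2 change 0.12 with SE 0.0386, edgeR adjusted p = 0.012), a call lost without control replicate 1 (0.08, edgeR adjusted p = 0.068).

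The scaffold genes rose where they changed. EIF4G2, whose product DAP5 lacks the eIF4E-binding region and supports cap-independent initiation, had 1205, 1154, 1109 and 1075 CPM in control and 1404, 1391, 1389.6 and 1397 CPM in ELAPOR1 libraries (log2 change 0.30 with SE 0.0290, edgeR adjusted p = 2.4e-10). EIF4G1, the main eIF4F scaffold, had 891, 859, 875 and 861 CPM in control and 965, 991, 984 and 1020.2 CPM with ELAPOR1 (log2 change 0.18 with SE 0.0267, edgeR adjusted p = 7.1e-07). Its paralog EIF4G3 had 100.1, 94.2, 97.2 and 93.2 CPM in control and 90.2, 90.0, 93.4 and 92.7 CPM in ELAPOR1 libraries, with overlapping groups (log2 change -0.07 with SE 0.0391, edgeR adjusted p = 0.14).

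Among cap-binding genes the changes were small. EIF4E had 78.6, 82.6, 81.9 and 82.1 CPM in control and 90.3, 88.4, 88.9 and 88.7 CPM in ELAPOR1 libraries, without overlap (log2 change 0.13 with SE 0.0393, edgeR adjusted p = 0.006). EIF4E2, a homologous cap-binding protein associated with translational repression, had 67.6, 69.5, 70.3 and 66.9 CPM in control and 73.3, 73.4, 76.6 and 70.6 CPM with ELAPOR1 (log2 change 0.10 with SE 0.0428, edgeR adjusted p = 0.06). It passed the threshold without ELAPOR1 replicate 4 (0.12, edgeR adjusted p = 0.044).

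The inhibitors of eIF4E moved apart. EIF4EBP1, the best-studied mTORC1 substrate that sequesters eIF4E, had 33.5, 40.4, 41.8 and 44.7 CPM in control and 31.1, 29.1, 29.2 and 29.2 CPM in ELAPOR1 libraries (log2 change -0.43 with SE 0.0689, edgeR adjusted p = 5.4e-06). EIF4EBP2, its paralog, had 133, 122, 122 and 119 CPM in control and 158, 155, 151 and 154 CPM with ELAPOR1 (log2 change 0.32 with SE 0.0364, edgeR adjusted p = 7.7e-09). Neither pair of groups overlapped. PABPC1, which binds the poly(A) tail and eIF4G, had 4132, 4167, 4067 and 4036 CPM in control and 3259.7, 3336, 3386 and 3387 CPM in ELAPOR1 libraries (log2 change -0.30 with SE 0.0246, edgeR adjusted p = 6.0e-12). The summed level of the 13 genes went from 9682 ± 116 to 8853 ± 69.5 CPM, in which PABPC1 is the largest term.

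All 5 genes of the eIF5 and eIF6 group were higher with ELAPOR1. EIF5A2, an amplified paralog of EIF5A in some cancers, had 19.9, 19.4, 18.9 and 20.0 CPM in control and 24.8, 23.6, 22.7 and 24.1 CPM in ELAPOR1 libraries (log2 change 0.29 with SE 0.0686, edgeR adjusted p = 8.9e-04). EIF6, which keeps free large subunits from joining, had 179, 189, 199 and 199.7 CPM in control and 236, 234, 222 and 218 CPM with ELAPOR1 (log2 change 0.25 with SE 0.0360, edgeR adjusted p = 7.2e-07). EIF5B, the GTPase that joins the ribosomal subunits, had 264, 254, 253 and 261 CPM in control and 305, 297, 302 and 304 CPM in ELAPOR1 libraries (log2 change 0.23 with SE 0.0294, edgeR adjusted p = 9.3e-08). None of these 3 overlapped between groups. EIF5A, a factor that carries the modified amino acid hypusine and also acts in elongation, had 514, 539, 519.7 and 538 CPM in control and 585, 561, 551 and 570.2 CPM with ELAPOR1 (log2 change 0.10 with SE 0.0285, edgeR adjusted p = 0.0033). EIF5, which triggers GTP hydrolysis by eIF2, had 288, 265, 264 and 260.4 CPM in control and 283, 292, 278 and 291 CPM in ELAPOR1 libraries. Its groups overlapped through control replicate 1 (log2 change 0.09 with SE 0.0326, edgeR adjusted p = 0.028), and its call was lost without control replicate 2, 3 or 4 or ELAPOR1 replicate 2 or 4 (0.07 to 0.08, edgeR adjusted p = 0.060 to 0.095).

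The share of each paralog within its pair was compared across libraries with a 2-sided exact permutation test, whose smallest possible p for 4 against 4 libraries is 0.0286. EIF4A2 made up 44.8, 43.6, 44.0 and 42.8% of EIF4A1 and EIF4A2 counts in the control libraries and 35.7, 35.3, 36.5 and 35.8% in the ELAPOR1 libraries. The share fell by 7.98 points, and the exact permutation p was the smallest possible, or 0.0343 after adjustment over the 6 pairs. EIF4EBP2 went from 79.8, 75.2, 74.5 and 72.7% of the 4E-binding protein pair to 83.5, 84.2, 83.8 and 84.1%, a gain of 8.36 points. EIF1B gained 0.941 points beside EIF1 (5.23 ± 0.259% to 6.17 ± 0.270%), as EIF1 fell. EIF4G3 lost ground to EIF4G1 (9.94 ± 0.146% to 8.47 ± 0.171%), and EIF5A2 gained on EIF5A (3.57 ± 0.117% to 4.03 ± 0.0520%). These 5 pairs had no overlap and the same exact p. EIF4E2 held 45.8 ± 0.623% of the cap-binding pair in control and 45.2 ± 0.841% with ELAPOR1, with overlapping groups (exact permutation p = 0.314). Leaving out 1 library raises the smallest possible p to 0.0571, so no share can pass the threshold with 7 libraries.

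**Figure D4:**
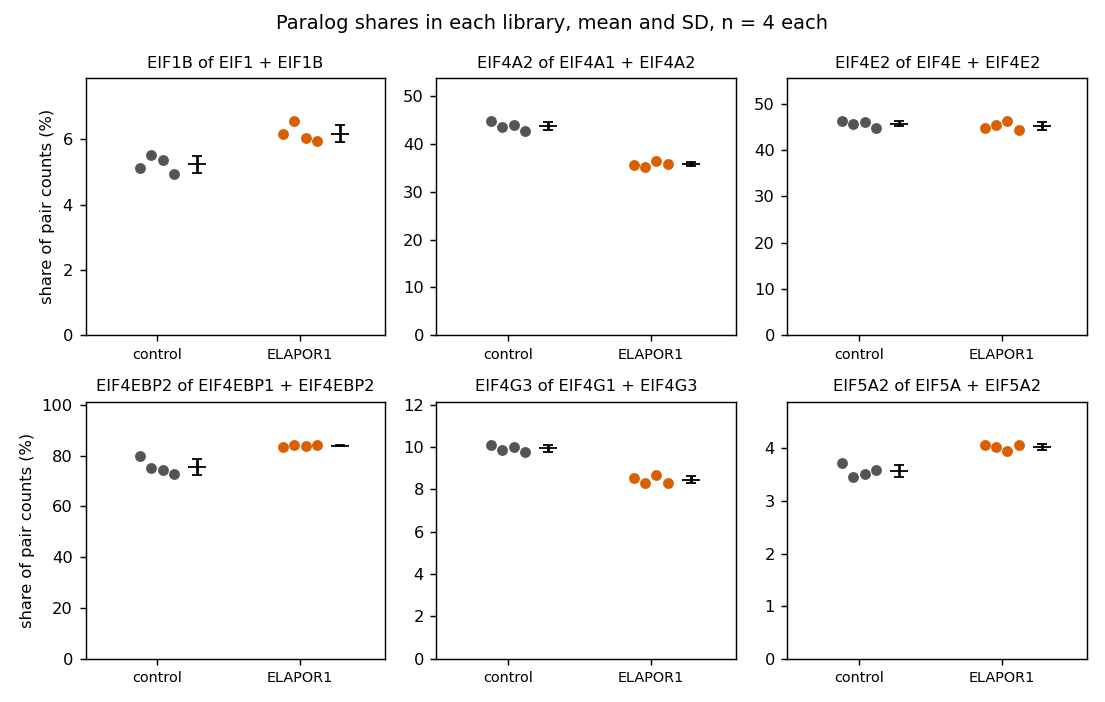
Percent of the summed counts of a paralog pair that belong to the named gene (vertical axis), in each of the 8 libraries (points) for 6 pairs. The share of EIF4A2 fell by 7.98 points and that of EIF4EBP2 gained 8.36 points between the group means, while the EIF4E2 points overlap between groups.

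Regulators and partners of initiation outside the 42 genes were taken from 5 lists with 55 genes. Of these, 54 were tested and EIF4E1B was at 0 in every library. In total 20 were higher, 16 lower and 18 not called, beside the 44.7% called over all genes tested. Of 9 genes acting on eIF2 phosphorylation, 4 rose and 2 fell. EIF2AK2, the double-stranded RNA kinase PKR, rose from 158 ± 10.2 to 198 ± 9.16 CPM (log2 change 0.33 with SE 0.0404, edgeR adjusted p = 1.6e-07). DNAJC3, a chaperone that restrains eIF2 kinases, went from 40.1 ± 1.80 to 47.8 ± 0.775 CPM (log2 change 0.25 with SE 0.0516, edgeR adjusted p = 1.3e-04), and EIF2AK1, the heme-regulated kinase, from 212 ± 5.10 to 239 ± 4.20 CPM (log2 fold change 0.18). GCN1, an activator of the kinase GCN2, was the fourth, at 0.12. Both regulatory subunits of the eIF2 phosphatase fell, PPP1R15A at -0.15 and PPP1R15B at -0.12. The kinases EIF2AK3 and EIF2AK4 and the GCN2 inhibitor IMPACT were not called.

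Of 16 genes in the mTORC1 and MNK control of cap binding, 4 rose and 5 fell. PDCD4, which blocks the eIF4A helicase, had 94.9, 90.7, 91.7 and 89.0 CPM in control and 54.9, 53.6, 58.2 and 57.0 CPM in ELAPOR1 libraries (log2 change -0.71 with SE 0.0432, edgeR adjusted p = 2.3e-15). DDIT4, a stress-induced inhibitor of mTORC1, had 67.0, 67.6, 64.9 and 69.3 CPM in control and 45.5, 42.2, 42.8 and 41.7 CPM with ELAPOR1 (log2 change -0.64 with SE 0.0477, edgeR adjusted p = 3.6e-13). MKNK2, a kinase that phosphorylates eIF4E, had 153, 156, 158 and 156 CPM in control and 110.4, 111, 101 and 109.6 CPM in ELAPOR1 libraries (log2 change -0.53 with SE 0.0361, edgeR adjusted p = 4.8e-14). None of the 3 overlapped between groups. TSC1 and TSC2, which restrain mTORC1 through RHEB, were lower by less (-0.15 and -0.13). Both had overlapping groups (edgeR adjusted p = 0.013 and 0.042). MTOR itself, at 0.34, its partner RPTOR, at 0.26, the mTORC1 inhibitor AKT1S1, at 0.30, and LARP1, at 0.11, were higher.

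Of the 13 tested cap-binding and poly(A)-binding partners, 5 rose and 7 fell. EIF4E3, a divergent cap-binding homolog, fell from 1.43 ± 0.243 to 0.553 ± 0.137 CPM (log2 change -1.34 with SE 0.332, edgeR adjusted p = 0.0012), on 6 to 28 counts per library. EIF4EBP3, the third 4E-binding protein, went from 2.66 ± 0.630 to 1.64 ± 0.486 CPM (log2 change -0.69 with SE 0.247, edgeR adjusted p = 0.022). Its locus overlaps the annotated readthrough gene ANKHD1-EIF4EBP3 and its expected counts were not whole in all 8 libraries. The call was lost without control replicate 4, ELAPOR1 replicate 1 or ELAPOR1 replicate 2 (edgeR adjusted p = 0.098, 0.054 and 0.097), so this value is uncertain. CTIF, which supports initiation on mRNAs bound by the nuclear cap-binding complex, fell from 25.6 ± 0.186 to 17.5 ± 1.26 CPM (log2 change -0.55 with SE 0.0710, edgeR adjusted p = 8.9e-08). The nuclear cap-binding genes split, with NCBP1 at 0.30, NCBP3 at 0.13 and NCBP2 at -0.30. The PABPC1 antagonists split too, with PAIP2B at 0.44 and PAIP2 at -0.31. Of the remaining partners, PABPC4 (0.11) and GIGYF2 (0.19) were higher, and PABPC1L (-0.25) and PAIP1 (-0.20) were lower.

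Among 13 scanning, start-site and recycling factors, 6 rose and 2 fell. DHPS, which carries out the first step in making hypusine on eIF5A, had 48.1, 52.7, 54.8 and 54.0 CPM in control and 37.6, 38.0, 37.6 and 35.7 CPM in ELAPOR1 libraries (log2 change -0.49 with SE 0.0534, edgeR adjusted p = 2.2e-09). DHPS therefore fell while EIF5A and EIF5A2 rose, and DOHH, which completes the modification, was not called (0.11). The DHPS locus overlaps the annotated genes WDR83 and AC010422.8, and its expected counts were not whole in all 8 libraries. Shared reads therefore add uncertainty to the DHPS value. EIF3C, a core eIF3 subunit, went from 189.6 ± 14.0 to 238 ± 14.7 CPM (log2 change 0.33 with SE 0.0548, edgeR adjusted p = 3.0e-04). Its near-identical copy EIF3CL went from 75.7 ± 14.4 to 109 ± 12.7 CPM (log2 change 0.52 with SE 0.154, edgeR adjusted p = 0.034), a call lost without any 1 library other than control replicate 2 (edgeR adjusted p = 0.055 to 0.084). Both had non-whole expected counts in all 8 libraries, so their separate levels are uncertain. Tested genes within 1 Mb had a median log2 fold change of 0.12 for EIF3C and 0.33 for EIF3CL, whose part in the result was not tested. The other genes that rose were the helicases DHX29 (0.27) and DDX3X (0.12), the recycling ATPase ABCE1 (0.11) and BZW1 (0.25). EIF2D fell (-0.12). The groups overlapped for DDX3X. Of 3 mitochondrial initiation genes, MTIF2 rose from 67.4 ± 2.07 to 75.3 ± 1.96 CPM (log2 change 0.16 with SE 0.0427, edgeR adjusted p = 0.0025), and MTIF3 and MTFMT were not called.

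**Figure D5:**
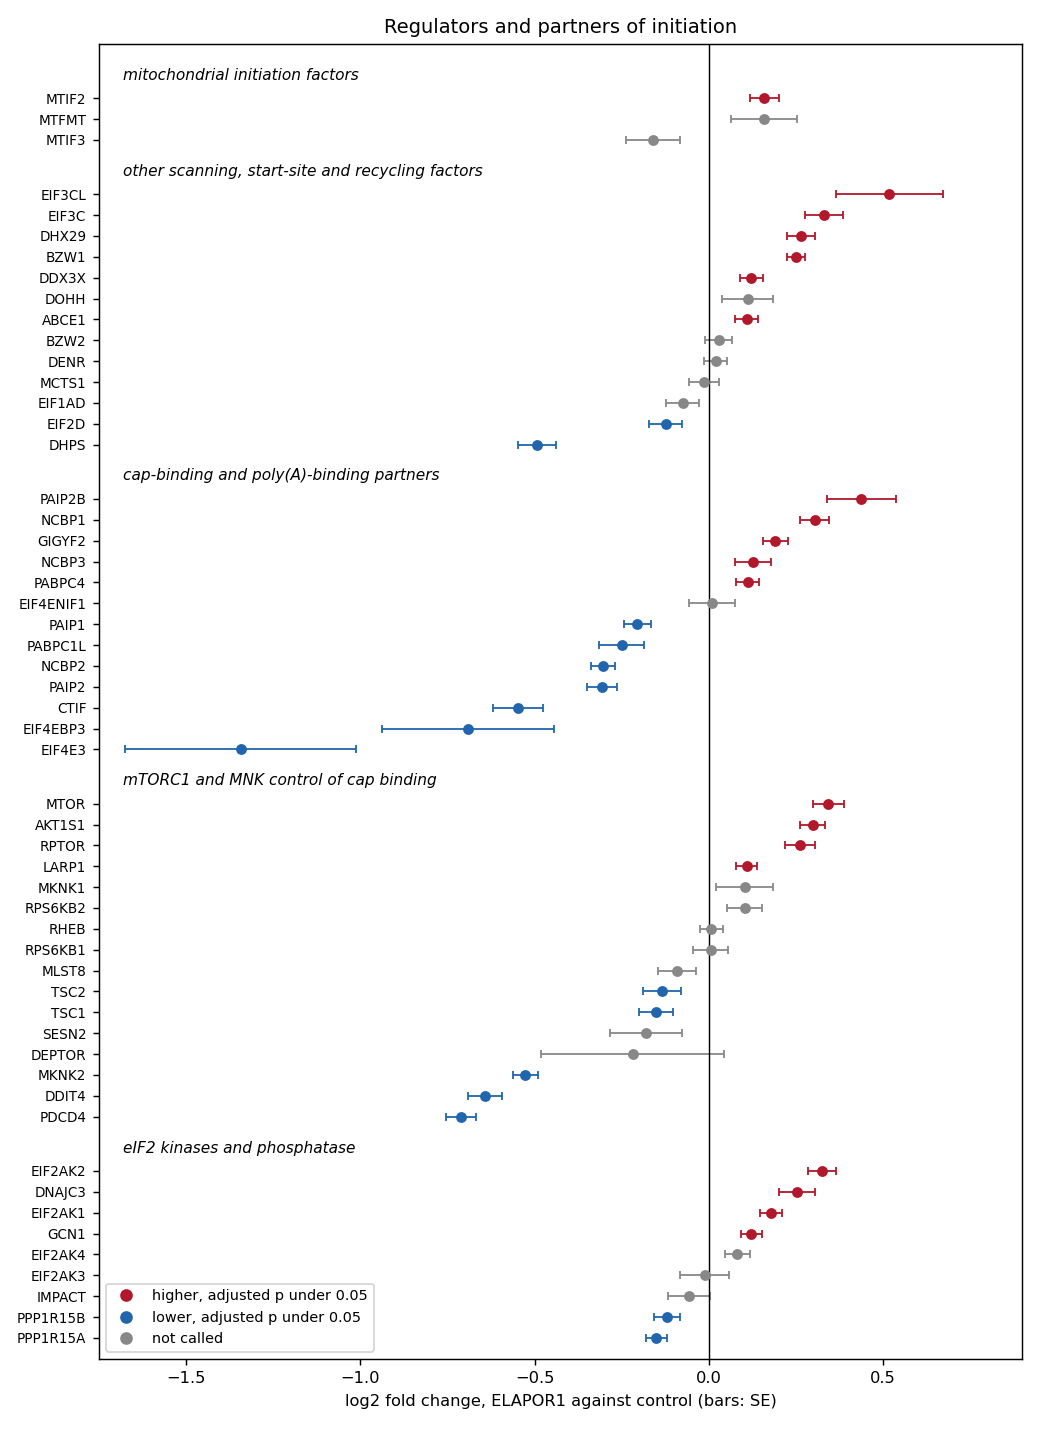
Log2 fold change of ELAPOR1 over control (horizontal axis) with its standard error for the 54 tested regulators and partners, grouped by list, with 4 libraries per group. Red and blue mark genes called higher and lower and grey those not called, and the lowest value is EIF4E3 at -1.34, with a wide error on few counts.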

How the data were processed

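Total RNA of 8 Panc 10.05 samples was sequenced on an Illumina NextSeq, per the labels' protocols. The authors deposited a table of estimated counts per gene (RSEM expected counts, per the file's columns and values), in which 15.0% of the nonzero values are not whole (whole means an exact integer as deposited, with no tolerance). The submitters' processing notes name cutadapt, STAR, RSEM, DESeq2 and hg38 without roles or versions, and strand handling is not given in the sources used here. An estimated count divides reads that match several genes. Among the members, 27 had whole values in every library. EIF1AX, EIF2S2, EIF2S3, EIF3F, EIF3L, EIF4A1, EIF4B, EIF4E, EIF4H, EIF5A and EIF6 had non-whole values in all 8. EIF3E, PABPC1, EIF4A2 and EIF4G2 had them in 7, 6, 4 and 2 libraries. Reads shared with other loci add uncertainty to the 11 genes and to these last ones. Members that overlap other genes, such as EIF2S1, EIF2S2, EIF3G, EIF4A2 and EIF5B, could also hold their neighbours' reads.

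Here the counts were rounded and genes filtered with filterByExpr, leaving 13860. They were scaled by TMM and tested with edgeR 4.0.16 (robust quasi-likelihood test, 4 control against 4 ELAPOR1 libraries, no covariate; R 4.3.3), with Benjamini-Hochberg adjustment over all genes tested. The threshold was an adjusted p of 0.05, and the common biological coefficient of variation was 0.0401. CPM are TMM-scaled. SE was derived from the log2 fold change and the test's F value (size over root F). The scripts were tested on simulated counts. Overlapping genes came from GENCODE 29 on GRCh38, in which 58597 of 58870 identifiers were found after dropping the version, and start sequences from RefSeq on GRCh38.p14, matched by symbol.

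Every member is accounted for. Per-library values are given for the 4 called genes with the largest change in each complex and for each paralog pair, and the 3 such genes of each companion list are named with values. The members and lists were chosen with earlier results of these data known. Alternatives covered scaling (DESeq2 size factors, upper quartile, totals), DESeq2 1.42.0, limma 3.58.1 (voom), count filters, GC and length trends, a replicate block, a 1.2-fold test, a threshold of 0.01, leaving out each library and, chosen after seeing the data, other tract definitions.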

Additional observations from a re-analysis of the deposited data

Results flagged for a closer look

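In groups of 4 libraries, the gap of a library to the nearest other one was divided by the range of the group. The library was singled out when this ratio exceeded Dixon's 95% critical value, so a small gap can count where the other libraries lie close together. Of 124 groups examined, 7 were singled out, and chance alone would single out about 6.2. EIF5 in control replicate 1 stood at 288 CPM, against 260.4 to 265 CPM in the other libraries of its group. EIF1 in ELAPOR1 replicate 2 was at 299.8 CPM, against 289 to 291 CPM in the other libraries of its group. EIF4EBP1 in ELAPOR1 replicate 1 had 31.1 CPM, against 29.1 to 29.2 CPM in the other libraries of its group. MKNK2 in ELAPOR1 replicate 3 stood at 101 CPM, against 109.6 to 111 CPM in the other libraries of its group. DHPS in ELAPOR1 replicate 4 was at 35.7 CPM, against 37.6 to 38.0 CPM in the other libraries of its group. EIF3C in ELAPOR1 replicate 3 had 216 CPM, against 243 to 247 CPM in the other libraries of its group. MTIF2 in ELAPOR1 replicate 1 stood at 72.4 CPM, against 76.0 to 76.6 CPM in the other libraries of its group.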

How the results depend on the processing

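The direction and call of most results held. Over the named genes, 1118 values were recomputed: 1041 kept their direction and side of the threshold, 60 kept the direction and lost the call, 6 gained one and 11 changed sign, all of them in the 3 uncalled genes EIF2B3, EIF3K and EIF4H. The median log2 fold change of all genes was 8.7e-04 in the reported fit and 0.022 with scaling by totals, the scaling that moved it most.

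The test against a 1.2-fold change called 9 initiation factors (32 in the reported test), 6 companion genes (36), 3 lower members with a tract (7) and 1 higher member without one (16). Other settings called 29 to 34 initiation factors and 30 to 37 companion genes. With a tract of at least 8 bases, 3 members with and 5 without a tract were lower, and with a tract beginning within 2 bases, 2 with a tract were higher.

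Replicate numbers did not pair the libraries (correlations of same-numbered deviations -0.021 to 0.033, with 2 of 8 libraries closest to their own number). With the replicate block edgeR called 32 initiation factors and 34 companion genes. For the paralog shares the block gave 0.941 (EIF1B), -7.98 (EIF4A2), 8.36 (EIF4EBP2), -1.47 (EIF4G3) and 0.456 points (EIF5A2) with an exact sign-flip p of 0.125, the smallest possible. Leaving out each library gave 0.814 to 1.03, -8.32 to -7.65, 7.41 to 9.79, -1.54 to -1.42 and 0.421 to 0.509 points in the same order.

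With single libraries left out, EIF2B3 ran from -0.123 to 0.031 (0.013 without ELAPOR1 replicate 1), EIF4H from -5.6e-04 to 0.0252 and EIF3K from -0.057 to 0.0535. EIF3K also gave -9.8e-05 (DESeq2 size factors), -0.0071 (upper quartile), -6.9e-04 (DESeq2 test) and -4.4e-04 (no filter). EIF2B4 was called with total scaling (0.15, edgeR adjusted p = 0.043). EIF4E2 was called with total scaling (0.12, edgeR adjusted p = 0.022) and with GC and length trends removed (0.11, edgeR adjusted p = 0.026). The causes were not tested. The widest standard errors among the members were those of EIF2B3 (0.0839) and EIF1B (0.0741).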
